A study of Sus scrofa with 5 samples.

Results

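The miR-181 family was followed through small RNA libraries of pig embryos and cultured cells. Its members were taken by name from the table of reported miRNAs, as every mature miRNA called ssc-miR-181a, ssc-miR-181b, ssc-miR-181c or ssc-miR-181d with or without an arm ending. This gave 5 mature names of 411 in the table, listed in 7 rows for 6 precursors. Of these 5 names, ssc-miR-181a, ssc-miR-181b, ssc-miR-181c and ssc-miR-181d-5p had reads, among 327 names with a read in any library. ssc-miR-181d-3p, the opposite arm of the miR-181d hairpin, had 0 reads in all 5 libraries.

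BL_1 and BL_2 were separate pools of hatched day 7 parthenogenetic blastocysts (BLs), which develop from oocytes activated by an electric pulse without sperm and then held in 6-DMAP. The ES-like line, embryonic stem cell-like cells derived from in vitro produced blastocysts, was grown with stem cell factor and basic fibroblast growth factor on mitomycin-C-treated mouse embryonic fibroblasts and sampled at passage 19. Porcine embryoid bodies (PEBs) were aggregated from colonies of the same line at passage 19, detached from their feeder cells, by hanging-drop culture for 5 to 6 days without cytokines. Pig fetal fibroblasts (PFFs) came at passage 9 from mixed-breed fetuses of about 30 days whose heads, limbs and internal organs had been removed. The line and its PEBs are recorded as XX and PFFs as XY, so sex and cell type cannot be told apart between them. Mouse miRNAs from feeder cells with the same mature sequence as the pig's would be counted with them, and their share in the ES-like library was not tested. BLs had 2 libraries and ES-like cells, PEBs and PFFs had 1 each, so differences between the cultured cells have no replicate check.

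MicroRNAs are short RNAs that repress messenger RNAs by pairing, chiefly through the seed at their 5′ end. The members of the miR-181 family have the same seed and differ at a few bases outside it, so they are held to share most targets. The family is best known from lymphocytes, where miR-181a sets the sensitivity of the T cell receptor by repressing phosphatases, and it has also been linked to muscle and blood cell differentiation. In mammals its hairpins lie in pairs, close enough to be made from a shared transcript. In RefSeq's annotation of the pig assembly Sscrofa11.1, all 6 precursors were matched by name and formed 3 such pairs. MIR181B-1 and MIR181A-1 lay next to each other inside a predicted protein-coding gene, LOC110255652. MIR181A-2 and MIR181B-2 lay next to each other within the span of NR6A1, a gene of an orphan nuclear receptor. MIR181D and MIR181C lay next to each other in no other gene, and the next gene after MIR181C was MIR23A. A mature miR-181a or miR-181b read can come from either of 2 hairpins, while miR-181c and miR-181d have 1 hairpin each.

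Depth differed widely. BL_1 held 113743 mature miRNA reads and BL_2 2782150, against 6372500 in the ES-like library, 15849954 for PEBs and 27071931 for PFFs. The study also reports that miRNAs made up a far smaller part of the small RNA in both BL libraries than in the cultured cells. Its BL reads had a wide length peak at a greater length than those of cultured cells. The part of this in differences from BLs was not tested. Levels are given in RPM, the count of a name relative to all mature miRNA reads of its library on the usual scale, with counts of a name summed over its precursor rows. A name without a read can still be present below the limit of 3 counts, which was 26.4 RPM for BL_1, 1.08 RPM for BL_2, 0.471 RPM for the ES-like library, 0.189 RPM for PEBs and 0.111 RPM for PFFs. These limits and all intervals below cover counting error only. A summary sheet of the study lists the read totals of ES-like cells and PFFs the other way round, and the column headers of the deposited table were followed here. Under these headers, ssc-miR-143-3p and ssc-miR-145-5p, known from fibroblasts and smooth muscle, were highest in PFFs, at 101507 and 2692 RPM. ssc-miR-363 and ssc-miR-106a, of a cluster known from pluripotent cells, were highest in ES-like cells, at 41258 and 3246 RPM. The embryo miRNA ssc-miR-371-5p stood at 324635 and 296148 RPM in BL_1 and BL_2 and at 30.9 RPM in ES-like cells, and the table held no name of the miR-302 and miR-367 cluster.

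The family as a whole was low in BLs and higher in every cultured library. It had 30 and 968 reads in the BL libraries, 9426 in the ES-like library, 62357 in PEBs and 61270 in PFFs, or 264, 348, 1479, 3934 and 2263 RPM. The 2 BL libraries lay below the 3 cultured libraries without overlap, with a BL mean of 306 ± 59.5 RPM (SD, n = 2). The family made up from 0.0264% of the mature reads in BL_1 to 0.393% in PEBs. In bulk libraries such as these, fewer cells that express a miRNA and less of it in each cell cannot be told apart.

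miR-181a was the most abundant member in every library. Its counts were 20 and 700 reads in the BL libraries, 6042 reads in the ES-like library, 43765 in PEBs and 38546 in PFFs, and these are 176, 252, 948, 2761 and 1424 RPM. The order was thus BLs, ES-like cells, PFFs and PEBs. By rank among the names with a read, which does not depend on a scale between libraries, miR-181a moved from places 94 and 89 in BL_1 and BL_2 to place 74 in ES-like cells, place 50 in PEBs and place 41 in PFFs.

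miR-181b differs from miR-181a at a few bases and is encoded beside it in both of its clusters. It had 10, 268, 1365, 13478 and 21313 reads in BL_1, BL_2, ES-like cells, PEBs and PFFs, or 87.9, 96.3, 214, 850 and 787 RPM. ES-like cells stood closer to BLs than to PEBs for this member. Its rank was 115 and 118 in the BL libraries and 122 in the ES-like library, against 69 in PEBs and 58 in PFFs. The ranks of BLs and ES-like cells therefore differed little, although the RPM of ES-like cells was 2.33 times the BL mean of 92.1 ± 5.95 (SD, n = 2).

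miR-181d and miR-181c, the members with a single hairpin each, had another pattern. ssc-miR-181d-5p had 0 reads in BL_1 and BL_2, and was counted 1758 times in ES-like cells, 4509 times in PEBs and 1277 times in PFFs. The levels in these cultured cells were 276, 284 and 47.2 RPM. ES-like cells and PEBs were thus nearly level, with rank 114 in each, and PFFs were lower, with rank 139. ssc-miR-181c followed it at a lower level, with 0 reads in both BL libraries, 261 reads from ES-like cells, 605 from PEBs and 134 from PFFs, or 41.0, 38.2 and 4.95 RPM. Its rank was 182 in both ES-like cells and PEBs and 220 in PFFs. The opposite arm ssc-miR-181d-3p stayed below the limit of 3 counts in every library, also in PEBs, where the -5p arm had 4509 reads.

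**Figure D1:**
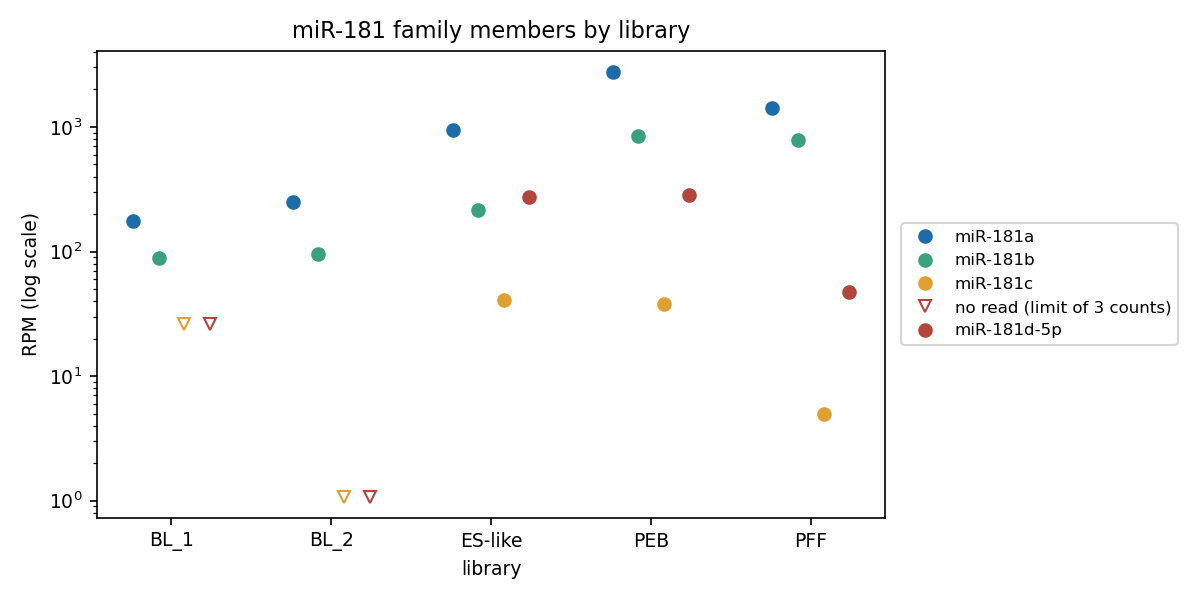
Level of the 4 miR-181 members with reads in RPM (log scale) in the 5 libraries, as filled points, or as open triangles at the limit of 3 counts where a library had none. miR-181a and miR-181b are lowest in the 2 BL libraries, and miR-181c and miR-181d-5p have no read there and are lower in PFFs than in ES-like cells and PEBs.

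The absence of miR-181c and miR-181d reads in BLs was set against depth. At the level of ES-like cells, ssc-miR-181d-5p would have given 768 reads in BL_2 and 31.4 in BL_1, and ssc-miR-181c 114 and 4.66. None was counted. Taken on RPM against the limit of 3 counts in each library, ssc-miR-181d-5p was at least 256-fold higher in ES-like cells than in BL_2 and at least 10.5-fold higher than in BL_1. On edgeR's TMM scale it stood at 174 in ES-like cells, with 1 read at 0.414 in BL_2 and 8.24 in BL_1. Both bounds are smaller on that scale. ssc-miR-181c was at least 38.0-fold higher than in BL_2 and at least 1.55-fold higher than in BL_1, again on RPM. With DESeq2 size factors, another scale between libraries, ssc-miR-181c stood at 20.2 in ES-like cells. The 10 reads of miR-181b in BL_1 stood at 71.6 on that scale, so ssc-miR-181c lay below the limit of 3 counts of BL_1. A difference from BL_1 was therefore not shown there. PFFs had so little of ssc-miR-181c, 4.95 RPM, that BL_1 was not deep enough to show a difference, with an expected 0.563 reads. BL_2 at that level would have given 13.8 reads.

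The composition of the family does not depend on how libraries are scaled to each other, and it was compared next. miR-181a held 66.7% of the family reads of BL_1 (95% Wilson interval 48.8 to 80.8%), 72.3% of those of BL_2 (69.4 to 75.0%), 64.1% for the ES-like library (63.1 to 65.1%), 70.2% for PEBs (69.8 to 70.5%) and 62.9% for PFFs (62.5 to 63.3%). It was thus the majority in each library. The next member was miR-181b in every library except ES-like cells, where ssc-miR-181d-5p had 1758 reads against 1365 of miR-181b. The share of miR-181b was lowest in ES-like cells, at 14.5% (13.8 to 15.2%), and stood at 21.6% (21.3 to 21.9%) in PEBs and 34.8% (34.4 to 35.2%) in PFFs. In BL_2 it was 27.7% (24.96 to 30.6%) and in BL_1 33.3% (19.2 to 51.2%).

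miR-181c and miR-181d together held 21.4% of the family reads of ES-like cells (20.6 to 22.3%), 8.20% of those of PEBs (7.99 to 8.42%) and 2.30% of those of PFFs (2.19 to 2.42%). In BL_2 they held 0 of 968 family reads, which allows a share of up to 0.310%, and in BL_1 0 of 30, which allows up to 10.0%. Both limits lie below the share in ES-like cells. Of the BLs, only BL_2 also lies below the shares in PEBs and PFFs. miR-181d gave most of it, with 18.7%, 7.23% and 2.08% of the family reads in ES-like cells, PEBs and PFFs, against 2.77%, 0.970% and 0.219% for miR-181c.

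These shares depend on how reads that match 2 hairpins were counted. The rows of ssc-mir-181a-1 and ssc-mir-181a-2 held 10 and 10 reads for BL_1, 350 and 350 for BL_2, 3021 and 3021 for the ES-like library, 21888 and 21877 for PEBs, and 19293 and 19253 for PFFs. The rows of ssc-mir-181b-1 and ssc-mir-181b-2 held 5 and 5 reads for BL_1, 134 and 134 for BL_2, 694 and 671 for the ES-like library, 6846 and 6632 for PEBs, and 10716 and 10597 for PFFs. The rows of each member are so close that a read matching both hairpins may have been entered at each, and the sum would then hold most miR-181a and miR-181b reads 2 times but miR-181c and miR-181d reads 1 time. The intervals of summed counts would then be too narrow. The counts do not tell which of the hairpins a read came from. In the whole table, 44 of 58 names with several rows and any read had rows within 5% of each other in every library. With the larger row in place of the sum, miR-181c and miR-181d held 35.2% of the family reads for the ES-like library (34.0 to 36.5%), 15.1% for PEBs (14.7 to 15.5%) and 4.49% for PFFs (4.27 to 4.73%), and the limit in BL_2 became 0.620% of 484 reads. The order of the libraries was again ES-like cells, PEBs, PFFs and BL_2, and miR-181a was the most abundant member in each, at 52.7% in ES-like cells. In BL_1, 0 of 15 reads then allows up to 20.0%, above the shares in PEBs and PFFs.

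**Figure D2:**
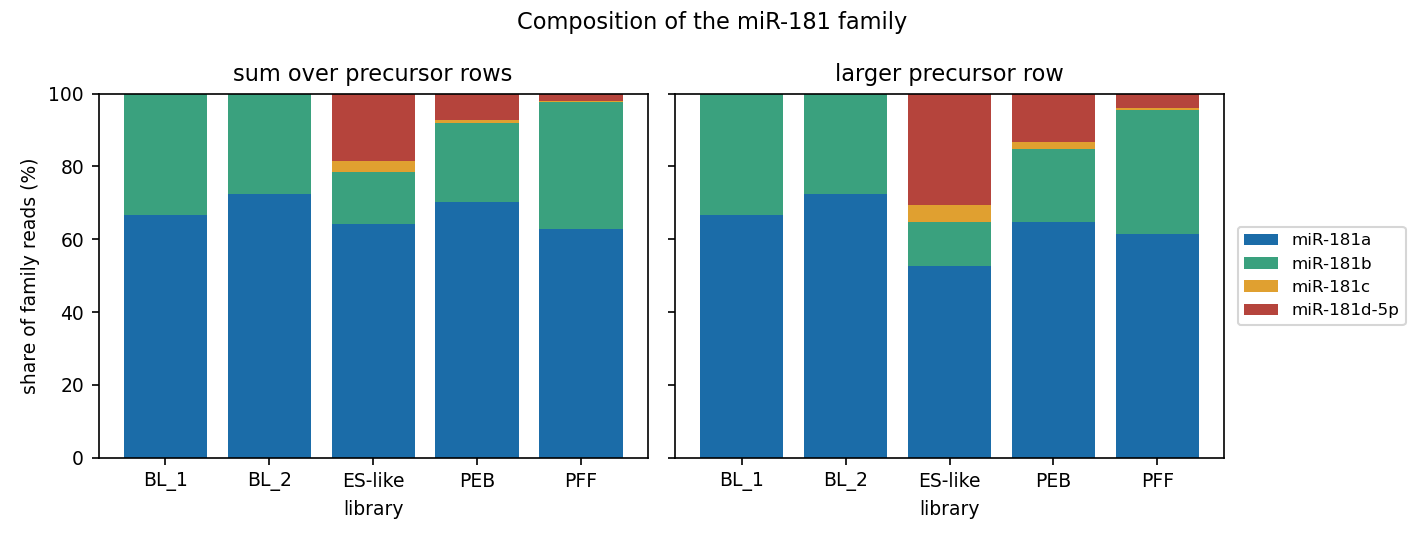
Share of each member in the reads of the miR-181 family (%) in the 5 libraries, with counts summed over precursor rows on the left and the larger precursor row on the right. The part held by miR-181c and miR-181d-5p is largest in ES-like cells, at 21.4% of the summed reads and 35.2% on the larger row, and is 0 in both BL libraries.

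Ratios within the family, taken on the larger row with exact 95% intervals, showed the same contrast member by member. The ratio of miR-181c and miR-181d to miR-181a and miR-181b was 0.543 (0.515 to 0.574) for the ES-like library, 0.178 (0.173 to 0.183) for PEBs and 0.0470 (0.0445 to 0.0496) for PFFs, with at most 0.00620 in BL_2 and 0.2 in BL_1 at the limit of 3 counts. miR-181a exceeded miR-181b by 4.35 times (4.01 to 4.73) for the ES-like library, 3.20 times (3.11 to 3.29) for PEBs, 2.61 times (2.13 to 3.21) for BL_2 and 1.80 times (1.76 to 1.84) for PFFs. In BL_1 it was 2 times, with an interval of 0.623 to 7.46 that covers all the others. miR-181d exceeded miR-181c by 6.74 times (5.91 to 7.70) for the ES-like library, 7.45 times (6.84 to 8.13) for PEBs and 9.53 times (7.97 to 11.5) for PFFs. The intervals of ES-like cells and PEBs overlap, as do those of PEBs and PFFs, while those of ES-like cells and PFFs do not. The proportion of these neighbouring hairpins thus moved far less than that of their sum to miR-181a and miR-181b. The mature sequences of the family are close to each other, and how reads matching several members were assigned is not given in the sources used here. In BL_2, 484 reads of miR-181a and miR-181b came with 0 reads listed as miR-181c or miR-181d.

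**Figure D3:**
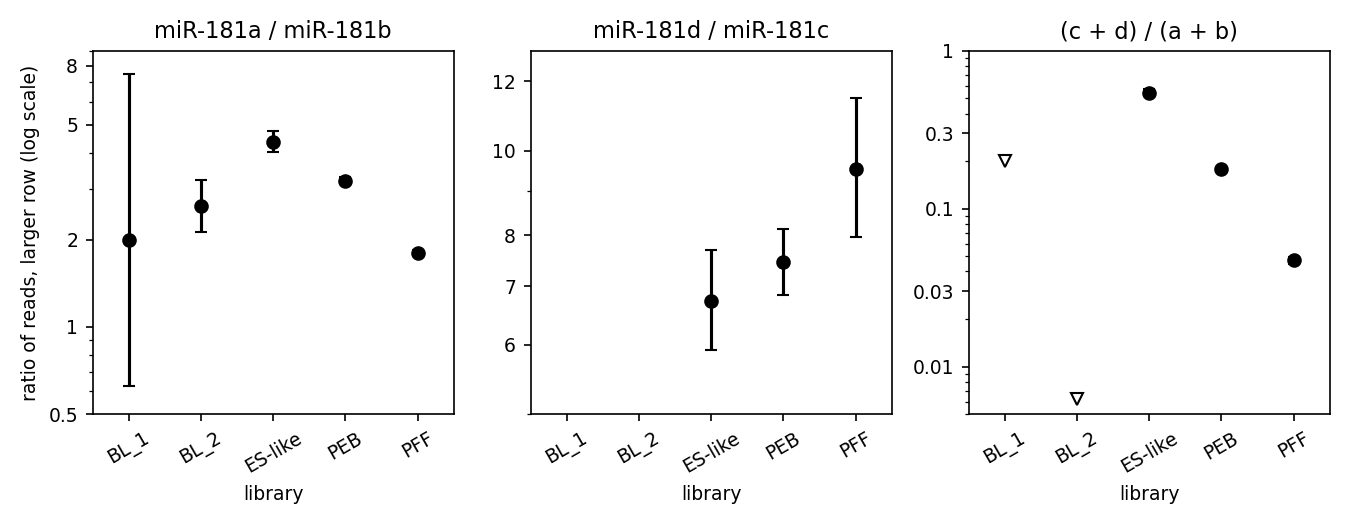
Ratios of reads between members on the larger precursor row (log scales) in each library, with exact 95% intervals for counting error and open triangles at the limit of 3 counts where the first members had no read. miR-181d to miR-181c stays between 6.74 and 9.53 in the cultured cells, while miR-181c and d to miR-181a and b falls from 0.543 in ES-like cells to 0.0470 in PFFs.

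Cultured cells were compared with BLs by the rule of the study, a ratio above 2 against the mean of both BL libraries, applied to the RPM of names with at least 10 reads in a library compared. The 3 comparisons share the BL libraries. All 4 members with reads were higher in ES-like cells, as were 53.9% of the 293 names tested. With 0 BL reads, miR-181c and miR-181d-5p entered each of the 3 comparisons only through the cultured cells, so they could only be called higher. Against the limit in BL_1, the bound for miR-181c was 1.55-fold, below 2-fold. miR-181a was 4.44 times the BL mean, with 5.39 times for BL_1 (exact interval 3.49 to 8.83) and 3.77 times for BL_2 (3.48 to 4.08). miR-181b was 2.33 times the BL mean, and the exact intervals of 1.32 to 5.09 for BL_1 and 1.95 to 2.54 for BL_2 hold a ratio of 2. These values were ordinary for this comparison, above 59.9% and 47.9% of the other names, and the median name was 2.502 times as high in ES-like cells. miR-181c and miR-181d-5p shared the highest place with the other names that had no BL read. With edgeR's TMM scale, a trimmed mean of the ratios of most names, the ratio of miR-181b was 1.39, below 2-fold, and that of miR-181a was 2.63.

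In PEBs against BLs, all 4 members were again higher, as were 53.2% of the 297 names tested. The calls of miR-181c and miR-181d-5p again rested on BL counts of 0, and the bound for miR-181c against BL_1 was 1.45-fold, below 2-fold. miR-181a was 12.9 times and miR-181b 9.23 times the BL mean, above 72.3% and 70.6% of the other names. The nearer of the BL libraries still gave 10.97 times for miR-181a (exact interval 10.18 to 11.8) and 8.83 times for miR-181b (7.82 to 10.0). In PFFs against BLs, all 4 members passed, with 40.7% of the 295 names tested, but ssc-miR-181c and ssc-miR-181d-5p passed on BL counts of 0 alone. BL_1 could not show a difference for ssc-miR-181c. For ssc-miR-181d-5p the bound against BL_1 was 1.79-fold, below 2-fold. miR-181a was 6.66 times and miR-181b 8.55 times the BL mean, above 73.1% and 75.5% of the other names. With TMM, these became 10.4 and 13.5 times. A log2 difference of 0.52 for miR-181a and 0.13 for miR-181b between BL_1 and BL_2 was smaller than each log2 ratio to BLs under RPM, of which the smallest was 1.22.

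PEBs and their source cells differed in miR-181a and miR-181b but hardly in miR-181c and miR-181d. The PEB level of miR-181a was 2.91 times that of ES-like cells (exact interval 2.83 to 2.99) and miR-181b 3.97 times (3.75 to 4.20), above 89.1% and 95.1% of the other names. ssc-miR-181c stood at 0.932 times (0.805 to 1.08) and ssc-miR-181d-5p at 1.03 times (0.976 to 1.09). Thus 2 of 4 members were more than 2-fold higher in PEBs, beside 21.4% of the 285 names tested, for which the median ratio was 0.880. With TMM the members were at 4.10, 5.59, 1.31 and 1.45 times, so the call of each was the same, beside 31.9% of all names. Each cell type had 1 library, and the intervals do not hold differences between cultures.

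PFFs and ES-like cells differed in opposite directions within the family. miR-181b was 3.68 times as high in PFFs (exact interval 3.48 to 3.88) and miR-181a 1.502 times (1.46 to 1.54), while ssc-miR-181c was at 0.121 times (0.0974 to 0.149) and ssc-miR-181d-5p at 0.171 times (0.159 to 0.184). So 1 of 4 members was more than 2-fold higher in PFFs, beside 17.8% of the 292 names tested, and 2 of 4 were more than 2-fold lower, beside 51.0%. The median name was at 0.492 times in this comparison, in which ssc-miR-21 alone stood at 522808 RPM in PFFs and 154848 RPM in ES-like cells. Relative to the other names, miR-181b and miR-181a were above 89.7% and 75.3%, and miR-181d-5p and miR-181c above 26.8% and 20.6%. With TMM, miR-181a was 3.96 times as high in PFFs, past 2-fold, and miR-181b 9.68 times, and the others were at 0.318 and 0.450 times, still more than 2-fold lower. On that scale 39.4% of all names were more than 2-fold higher in PFFs and 28.1% lower, so the balance of all names turned with the scale.

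Between PEBs and PFFs, miR-181c and miR-181d-5p differed more than miR-181a and miR-181b. ssc-miR-181c was 7.71 times as high in PEBs (exact interval 6.39 to 9.37) and ssc-miR-181d-5p 6.03 times (5.67 to 6.42). miR-181a was at 1.94 times (1.91 to 1.97) and miR-181b at 1.08 times (1.06 to 1.104). Thus 2 of 4 members were more than 2-fold higher in PEBs, beside 44.7% of the 295 names tested, and miR-181c and miR-181d-5p stood above 80.6% and 76.2% of the other names. With TMM they were still 4.13 and 3.23 times as high, whereas miR-181a was at 1.04 and miR-181b at 0.578 times, and size factors of DESeq2 gave 0.975 and 0.543 times, so the direction for miR-181a and miR-181b depended on the scale. With TMM, 33.2% of all names were more than 2-fold higher in PEBs. With the larger precursor row, miR-181a also passed 2-fold, at a log2 ratio of 1.16, which makes 3 of 4 members. The share of all names was not taken on the larger row, so that count has no background beside it.

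**Figure D4:**
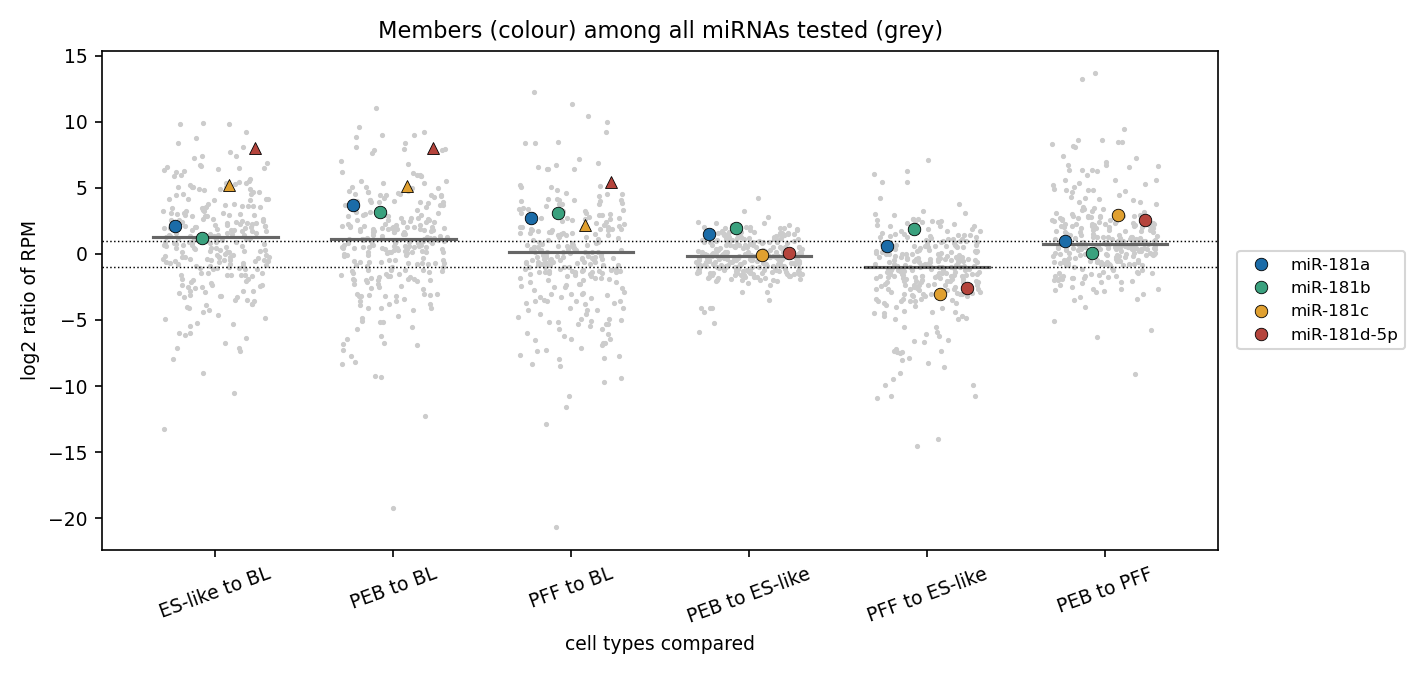
log2 ratio of RPM for the 4 members with reads (coloured circles) among all names tested with reads in both cell types (grey points), in 6 comparisons. Horizontal bars mark the median of all names tested, dotted lines 2-fold, and triangles the lower bound against the limit of 3 counts in BL_2. miR-181a and miR-181b lie above the median in PFFs against ES-like cells, and miR-181c and miR-181d-5p below it.

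The 3 libraries of pluripotent cells (BL_1, BL_2 and ES-like cells) were compared with the 2 of differentiated cells (PEBs and PFFs), the contrast drawn by the study. miR-181a and miR-181b were lower in each pluripotent library than in either differentiated one. miR-181a reached at most 948 RPM in the former and at least 1424 in the latter, and miR-181b at most 214 against at least 787. The share of all names that separated the classes in this way was not taken, so this has no background beside it. miR-181c and miR-181d-5p overlapped, because ES-like cells stood at the level of PEBs. edgeR's quasi-likelihood test gave a log2 fold change of -2.77 for miR-181a (SE 0.97, adjusted p = 0.381) and -3.23 for miR-181b (SE 0.94, adjusted p = 0.381). For miR-181c it gave -1.07 (SE 1.96, adjusted p = 0.876) and for miR-181d-5p -1.46 (SE 2.28, adjusted p = 0.840). None of the 4 passed, and 0% of the 279 names tested did, with 29 at an unadjusted p under 0.05. DESeq2 called 14 names and limma-voom 0, none of them a member. Without the ES-like library, edgeR called 16 names, and the adjusted p was 0.05004 for miR-181a, just above the threshold, and 0.0510 for miR-181b. Leaving out single libraries moved the log2 fold change of miR-181a from -1.99 without BL_1 to -3.47 without ES-like cells, and that of miR-181b from -2.35 without PFFs to -3.50 without PEBs. For miR-181c it became -0.38 without BL_1 and -0.13 without BL_2, and for miR-181d-5p -0.62 and -0.58. limma-voom gave -2.20 for miR-181c and -3.92 for miR-181d-5p. Each class mixes cell types, and 2 of the 3 pluripotent libraries are BLs. The p-values measure the spread between the libraries of a class, which may be technical in part.

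miRNAs of mesenchymal cells and fibroblasts were also higher in cultured cells than in BLs, and those highest in PFFs and those highest in PEBs both occurred among them. The 9 names of that list summed to 41743 and 72888 RPM in the BL libraries, 244375 RPM in the ES-like library, 404485 RPM in PEBs and 780676 RPM in PFFs, where ssc-miR-21 gave 522808 RPM. Of the 9, ssc-miR-199a-3p, ssc-miR-199b-3p, ssc-miR-199a-5p and ssc-miR-214 were in the order of miR-181a on RPM, with ssc-miR-214 at 322, 774 and 516 RPM in ES-like cells, PEBs and PFFs. ssc-miR-199a-3p and ssc-miR-199b-3p hold nearly the same counts, 1274657 and 1274666 in PEBs, so these names are not separate signals in the counts and sums of the list. Of them, ssc-miR-145-5p, ssc-miR-199b-5p and ssc-miR-214 were at 0 in BL_1 and none was at 0 elsewhere. By the same 2-fold rule, 8 of 9 were higher in ES-like cells than in BLs, 8 in PEBs and 9 in PFFs, beside 53.9%, 53.2% and 40.7% of all names tested. Against ES-like cells, miR-181c and miR-181d-5p were more than 2-fold lower in PFFs, as were 51.0% of all names. Against the same cells, 4 of the 9 were higher in PEBs and 5 of the 9 in PFFs, beside 21.4% and 17.8% of all names. With TMM these counts were 5 and 9 of 9, beside 31.9% and 39.4%, and 7, 8 and 9 of 9 against BLs, beside 44.7%, 48.1% and 46.4%. In PEBs against PFFs, 0 of 9 were more than 2-fold higher on either scale, beside 44.7% of all names on RPM and 33.2% with TMM, while miR-181c and miR-181d-5p were on both. More than 2-fold lower in PEBs on RPM were ssc-miR-100, ssc-miR-143-3p, ssc-miR-145-5p, ssc-miR-199b-5p and ssc-miR-21. Their log2 ratios ran from -3.04 to -1.46, beside 16.6% of all names lower. The 7 blood cell names in the table summed to between 134 RPM in BL_2 and 283 RPM in PFFs, and ssc-miR-155-5p gave 279 RPM of the latter. ssc-miR-142-3p, which marks blood cells, was at 0 in both BL libraries and reached at most 27.0 RPM, in PEBs. The other arm, ssc-miR-142-5p, reached 55.8 RPM there, against 0 and 1.80 RPM in BL_1 and BL_2. ssc-miR-144 was highest in ES-like cells, at 18.2 RPM. ssc-miR-451 stood at 0 and 13.3 RPM in BL_1 and BL_2 and at 13.8 RPM in ES-like cells. ssc-miR-486 was higher in BLs, at 106 and 49.6 RPM against at most 7.32 RPM in cultured cells. So was ssc-miR-150, at 17.6 and 33.1 RPM against at most 5.96 RPM. The summed 4 skeletal muscle names were lowest in ES-like cells, at 191 RPM, and highest in BL_2, at 2445 RPM. ssc-miR-1, at 155 and 1968 RPM, and ssc-miR-133a-3p, at 12.6 and 450 RPM, did the same. ssc-miR-206 was instead lowest in PFFs, with 0 reads, and ssc-miR-133b was highest in ES-like cells, at 3.45 RPM. ssc-miR-205, the name of the epithelial list that the table holds, stood at 4748 and 5753 RPM in BL_1 and BL_2 and at 21.03, 71.7 and 0.702 RPM in ES-like cells, PEBs and PFFs. ssc-miR-429, of the epithelial miR-200 family and chosen after its values had been seen, had 0 and 65 reads in the BL libraries, 7638 in the ES-like library, 11376 in PEBs and 2 in PFFs. Its level was 1199 RPM in ES-like cells and 718 RPM in PEBs, the cells in which miR-181c and miR-181d-5p were also highest. The part of the cells marked by these names in the levels of the family was not tested.

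The miRNAs with the most similar profiles were found by the Euclidean distance between centred log2(RPM + 1) profiles over the 5 libraries, among 278 other names. Nearest to miR-181a was ssc-miR-125b, at a distance of 0.837, against a median of 3.65. ssc-miR-125b, known as a regulator of differentiation, stood at 967, 1117, 7530, 17351 and 13083 RPM in BL_1, BL_2, ES-like cells, PEBs and PFFs. ssc-miR-450b-3p and ssc-miR-24-2-5p followed at 0.989 and 0.994, both at 14.0 RPM or less in every library. That is below the limit of 26.4 RPM in BL_1. ssc-miR-450b-3p had no read in either BL library and ssc-miR-24-2-5p none in BL_1, so their distances depend on the added 1 RPM. Nearest to miR-181b were ssc-miR-24-3p at 0.635, ssc-let-7g at 0.679 and ssc-miR-370 at 0.955, against a median of 4.02. ssc-let-7g, of the let-7 family known to accumulate in differentiation, stood at 1319, 1403, 3205, 8718 and 7169 RPM. miR-181a and miR-181b were each the 5th nearest name to the other, at 1.05.

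miR-181c and miR-181d-5p had other neighbours. The nearest names to miR-181c were ssc-miR-218b at 0.836, ssc-miR-17-3p at 1.13 and ssc-miR-136 at 1.15, against a median of 4.72. ssc-miR-218b stood at 79.1, 124, 2333, 3430 and 462 RPM. Its ratios among the cultured cells were nearly those of ssc-miR-218. The log2 ratio of ES-like cells to BLs was 4.52 for ssc-miR-218b and 4.95 for ssc-miR-218. Nearest to miR-181d-5p were ssc-miR-29a at 1.63, ssc-miR-127 at 2.22 and ssc-miR-136 at 2.40, against a median of 7.22. ssc-miR-127 and ssc-miR-136 are known from the imprinted DLK1-DIO3 domain. ssc-miR-136 had no read in either BL library and stood at 75.3, 96.0 and 6.32 RPM in ES-like cells, PEBs and PFFs. miR-181c was the 13th nearest name to miR-181d-5p, at 3.15, and miR-181a and miR-181b were the 62nd and 88th, at 5.32 and 6.10. Seen from miR-181c, miR-181a was the 31st nearest name, at 2.96, and nearer than miR-181d-5p, the 46th. The distances of miR-181c and miR-181d-5p depend on the added 1 RPM, since both have no read in BLs and the limit in BL_1 was 26.4 RPM.

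**Figure D5:**
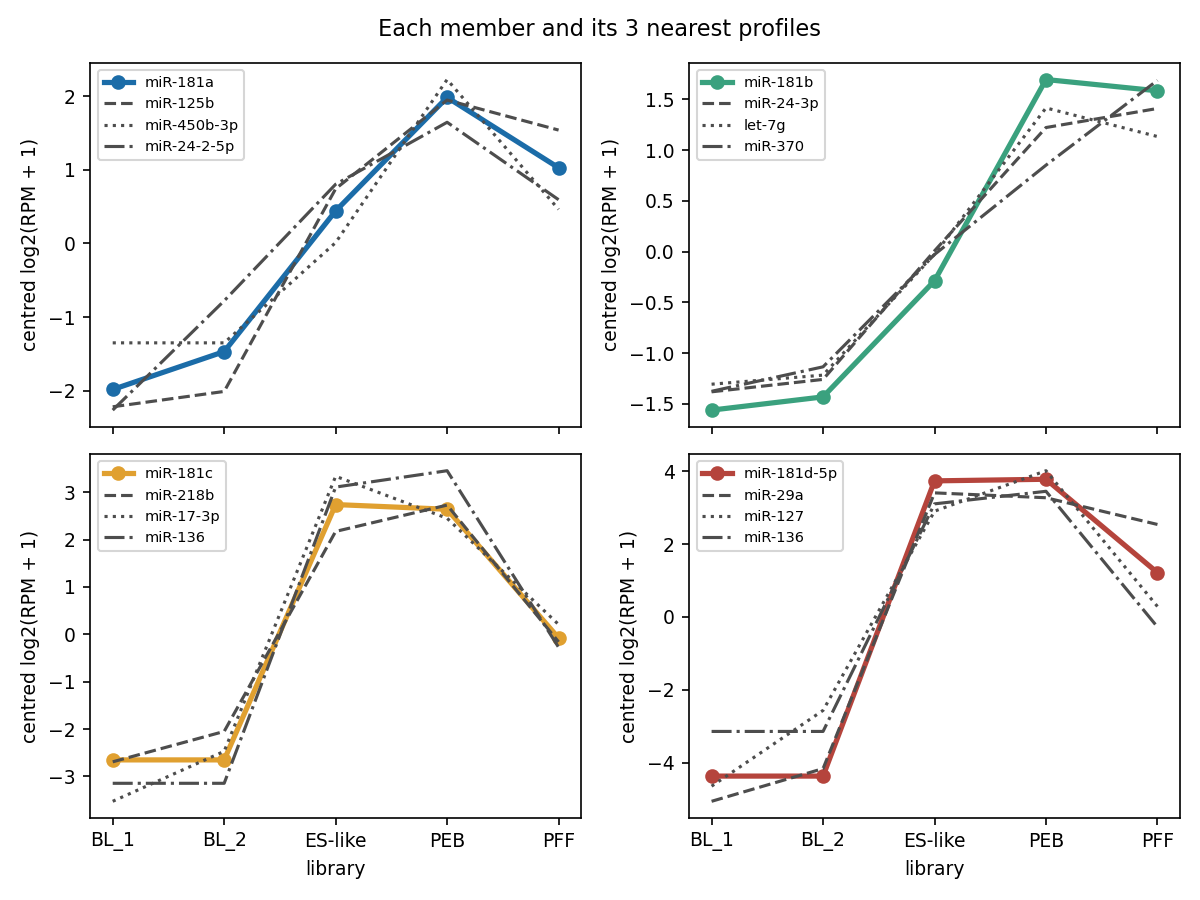
Centred log2(RPM + 1) of each member (coloured line) and of its 3 nearest miRNAs (dark broken lines) over the 5 libraries. Lines join libraries only to guide the eye. miR-181a and miR-181b share a profile that is low in BLs and high in PEBs and PFFs, and miR-181c and miR-181d-5p are each higher in ES-like cells and PEBs than in BLs and PFFs.

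The genes that follow MIR181C in the annotation, MIR23A, MIR27A and MIR24-1, were chosen after their values had been seen. ssc-miR-23a was counted 20 and 901 times in the BL libraries, 2137 times in the ES-like library, 11178 times in PEBs and 45443 times in PFFs, or 176, 324, 335, 705 and 1679 RPM. ssc-miR-27a stood at 52.8, 91.7, 613, 1219 and 2044 RPM. ssc-miR-24-1-5p, the arm that only MIR24-1 gives, stood at 8.79, 44.6, 131, 264 and 251 RPM, with 1 read in BL_1. All 3 had reads in each BL library and more RPM in PFFs than in the ES-like library, whereas miR-181c and miR-181d-5p had no BL read and were lower in PFFs than in ES-like cells. Of all names tested, 51.0% were more than 2-fold lower in PFFs than in ES-like cells.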

How the data were processed

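Small RNA of 5 pig libraries was sequenced. Per the labels and the methods of the study, the authors left out reads shorter than 17 bases or without adapter, trimmed with cutadapt 1.10, aligned with Bowtie 1.1.1 to Ensembl release 72 (Sscrofa10.2) and assigned miRNAs of miRBase release 21 with miRDeep2. The deposited values are raw counts for each pair of mature miRNA and precursor, and the treatment of multi-mapping reads is not stated. The TCC normalization of the study was not rebuilt here.

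Counts were summed over precursor rows and divided by the library total (RPM). The table of predicted loci was not used, as it names no miRNA. Cell types with 1 library were compared by ratios (threshold 2) with exact intervals, without a test. edgeR 4.0.16 (quasi-likelihood, TMM, names above 5 reads in 3 or more libraries, Benjamini-Hochberg adjustment, threshold 0.05) compared pluripotent with differentiated libraries, and the step was tested on simulated data. Alternatives were DESeq2 1.42.0, limma 3.58.1, TMM or DESeq2 size factors in place of RPM, pseudocounts of 1 and 10 RPM, the larger precursor row, other filters and omitted libraries. Named miRNAs were the members, the 3 nearest profiles of each and cell type markers, with ssc-miR-23a, ssc-miR-27a, ssc-miR-24-1-5p and ssc-miR-429 added after their values had been seen. The members and lists were chosen with earlier results of these data known. Python 3.11.15, pandas 2.3.3, scipy 1.17.1 and R 4.3.3 were used.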

Additional observations from a re-analysis of the deposited data

How the results depend on the processing

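The family stayed higher in each cultured library than in BLs under every setting tried, and its order among cultured cells depended on the scale. The log2 ratio of the family was 2.27 for ES-like cells to BLs, 3.69 for PEBs to BLs, 2.89 for PFFs to BLs, 1.41 for PEBs to ES-like cells, 0.61 for PFFs to ES-like cells and 0.80 for PEBs to PFFs. With TMM factors, the ratio of ES-like cells to BLs became 1.52, PFFs to BLs 3.53, PEBs to ES-like cells 1.91, PFFs to ES-like cells 2.01 and PEBs to PFFs -0.10. With DESeq2 size factors, ES-like cells to BLs became 1.63, PEBs to BLs 3.06, PFFs to BLs 3.26, PFFs to ES-like cells 1.63 and PEBs to PFFs -0.19. The cause was not tested, and in PFFs against ES-like cells the median log2 ratio of all names moved from -1.02 to 0.37 with TMM. With the larger precursor row, ES-like cells to BLs became 2.57, PEBs to ES-like cells 1.37, PFFs to ES-like cells 0.28 and PEBs to PFFs 1.09. The share of miR-181c and miR-181d became 35.2%, 15.1% and 4.49% in ES-like cells, PEBs and PFFs with the larger row, and 35.3%, 15.2% and 4.5% with counts divided by the number of rows. The count of 0 names called by edgeR became 14 with DESeq2, which gave miR-181c and miR-181d-5p no p, and ranged from 0 to 16 when single libraries were left out. Where a member kept enough reads to be tested, its adjusted p ranged from 0.05004 to 0.927 for miR-181a and from 0.0510 to 0.927 for miR-181b, 0.707 to 0.989 for miR-181c and 0.528 to 0.989 for miR-181d-5p. Member ratios past 2-fold kept their direction under these settings. Those of miR-181c and miR-181d-5p to BLs, bounds against 0 reads, were not recomputed for every setting. With size factors, miR-181c lay below the limit of BL_1 in each cultured library. Some ratios within 2-fold on summed RPM did not keep their direction. These were miR-181a (-0.04 to 1.16) and miR-181b (-0.88 to 0.34) between PEBs and PFFs, and miR-181c between PEBs and ES-like cells (-0.10 to 0.39). Of them, miR-181a between PEBs and PFFs passed 2-fold with the larger row. Pseudocounts moved none of the family ratios beyond its error, but 10 RPM moved miR-181c in PFFs to ES-like cells from -3.05 to -1.77 and in PEBs to PFFs from 2.95 to 1.69, and miR-181d-5p from -2.55 to -2.32 and from 2.59 to 2.36. Depth limited BL_1, where 1 read is 8.79 RPM. No paired analysis was possible because only BLs have more than 1 library.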
